A study of Mus musculus with 98 samples.

Results

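The subject is the early response to tau of cultured mouse hippocampal neurons in which Acss2 had been raised by a virus. It rests on 6 RNA sequencing libraries of the 98 in the series: 3 from neurons given the upACSS2 virus and then hAD-tau, and 3 from neurons given the same virus and then PBS, the buffer control. All were primary hippocampal neurons from embryos of the CD1 strain, cultured for 9 days. The column names mark these libraries, like all others used here, as unstimulated. Each culture received a PhP.eB virus on day 5, carrying either Acss2 (upACSS2) or no Acss2 (vector), and after 48 hours, on day 7, a PBS wash followed by hAD-tau or PBS, so tau exposure lasted 2 days. hAD-tau is the name the labels give to the tau material, whose dose and preparation are not given in the sources used here. The matching vector libraries of day 9, 3 with tau and 3 with PBS, entered the same fit of 12 libraries and served as the comparison.

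The ACSS2 protein joins acetate to coenzyme A to give acetyl-CoA. In neurons it is found in the nucleus as well as the cytosol, and nuclear acetyl-CoA is the donor for histone acetylation at genes used in plasticity and memory. Tau is a microtubule-binding protein of axons, encoded by Mapt. In Alzheimer's disease it forms fibrils, and extracts of such tau can be taken up by cultured neurons and seed further aggregation. Glial cells around tau deposits are known to turn reactive, with more of the filament protein GFAP.

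Totals ran from 15941077 to 28544640 counts in the 6 upACSS2 libraries and from 14603730 to 33960722 in all 12. Levels are in CPM, the unit for counts scaled to library size, which allows comparison between libraries but not between genes of different length. Groups follow the sample titles, because the treatment entry of the labels names tau for the upACSS2 libraries titled PBS and PBS for the vector libraries titled tau. Vector replicate 3 with tau stood apart. It differed from the other 2 of its group by a chi-square of 8.74 and 10.5 per gene, against 2.32 to 4.32 for the other pairs within groups, and 1.02% of its counts were from the ribosomal RNA gene Rn45s, against 0.198% to 0.474% elsewhere. The labels do not say that replicates came from separate cultures, so p-values measure the spread between these samples, which may be technical.

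The virus was checked by the level of Acss2 (GRCm38 chromosome 2, 155517948 to 155585724, plus strand). With upACSS2 it stood at 1963, 2040 and 1727 CPM in tau and at 1412, 1636 and 1855 CPM in PBS. With vector it stood at 45.1, 43.3 and 49.6 CPM in tau and at 48.5, 39.3 and 43.5 CPM in PBS. All 6 upACSS2 libraries therefore lay far above all 6 vector libraries, by a log2 fold change of 5.29 ± 0.07 (SE). Between tau and PBS the upACSS2 libraries overlapped, and their difference of 0.22 ± 0.07 did not pass the threshold (adjusted p = 0.258, edgeR).

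The first question was which genes differed between tau and PBS when Acss2 was high. Few did, and by little. Of 14022 genes tested, 49 passed an adjusted p of 0.05 in edgeR's quasi-likelihood test with 3 libraries per group, or 0.349% of the genes tested. Among them 30 were higher with tau (0.214%) and 19 lower (0.136%). The median size of change was 1.24-fold, and 5 genes passed 1.5-fold: Slc7a11, Gfap and Ppcs among those that rose, Npas4 and Lfng among those that fell. In each of the 49 genes the 3 tau libraries lay wholly above or wholly below the 3 PBS libraries. Over all genes tested, 7.87% had every tau library above every PBS library and 8.14% had every one below, so separation of the groups alone was common. At an unadjusted p under 0.05 there were 1269 genes.

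The number of calls depended on each library. Without 1 upACSS2 library at a time the test called 15, 2 or 1 genes (tau replicates 1, 2 and 3 left out) and 5, 8 or 23 genes (PBS replicates 1, 2 and 3 left out). The vector libraries are not in the comparison but enter its shared spread, filter, scaling and adjustment. Leaving out 1 of them gave 36, 84 or 81 calls (tau) and 32, 38 or 33 calls (PBS), in the order of replicates 1 to 3. Gfap passed in all 6 of the fits without a upACSS2 library, Slc7a11 in 5, Rims3 and Tfrc in 4 each, and 23 of the 49 in none.

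**Figure D1:**
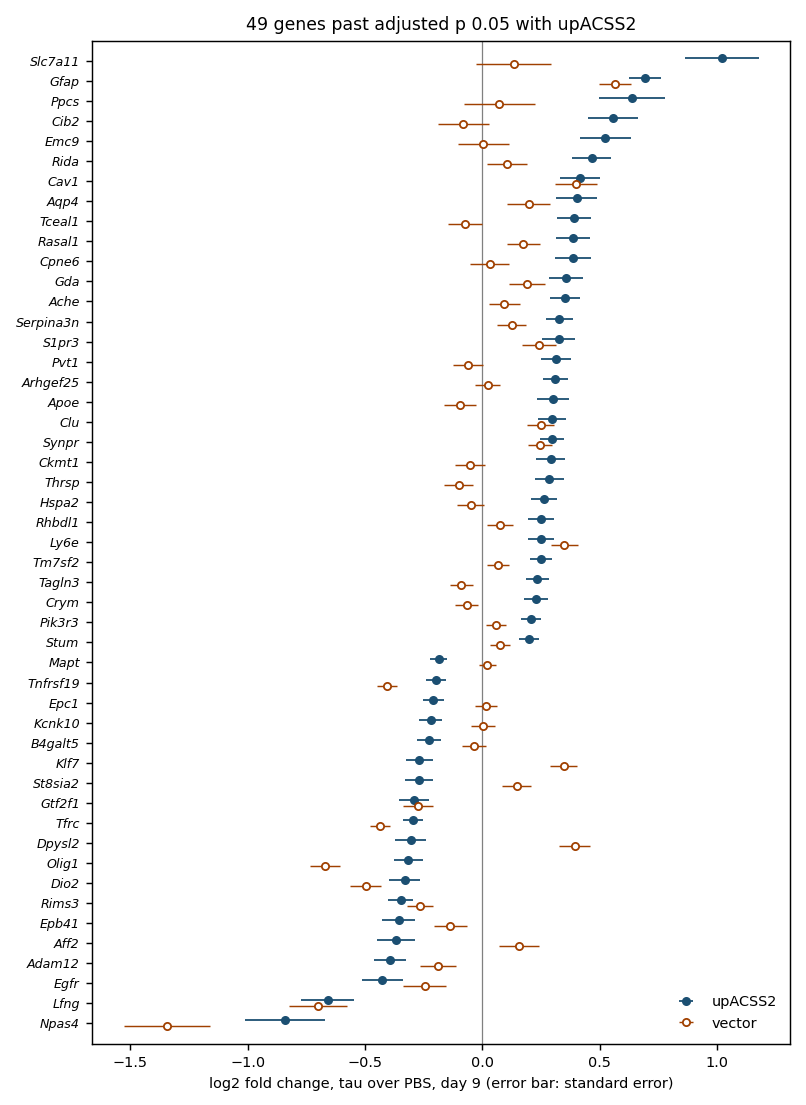
Log2 fold change of tau over PBS (horizontal axis) for each of the 49 genes past the threshold with upACSS2, with upACSS2 as filled points and vector as open points, error bars giving the standard error. The filled points run from -0.84 for Npas4 to 1.02 for Slc7a11. For 33 of the 49 genes the open point lies on the same side of 0 as the filled point. Klf7 and Dpysl2 are among the others, and only they were called in the opposite direction with vector.

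Gfap had the lowest p of the 49 genes. Gfap, the intermediate filament of astrocytes (chromosome 11, 102887336 to 102900912, minus strand), stood at 481, 561 and 595 CPM with tau and at 341, 321 and 350 CPM with PBS. The lowest tau library was above the highest PBS library, and Gfap rose 1.62-fold (log2 fold change 0.69 ± 0.07, adjusted p = 1.05e-05, edgeR). In the fits that left out 1 upACSS2 library its log2 fold change stayed between 0.63 and 0.78. Aqp4, the water channel of astrocyte endfeet, stood at 72.5, 70.6 and 83.9 CPM with tau and at 59.4, 48.0 and 64.0 CPM with PBS, a rise of 0.40 ± 0.09 on the log2 scale (adjusted p = 0.048). Its call held in 1 of the 6 fits without a library, that without PBS replicate 3.

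Gfap and Aqp4 were the only 2 of 13 tested astrocyte markers that passed. Of the 13, 7 lay above 0 and 6 below, with a median log2 fold change of 0.04, against 0.00 over all genes. Aldoc, a glycolytic enzyme of astrocytes, was at 233, 216 and 223 CPM with tau and 193, 166 and 187 CPM with PBS and missed the threshold (adjusted p = 0.092). S100b, a calcium-binding protein, lay in the other direction at -0.24 ± 0.12 (adjusted p = 0.595). The summed level of the 14 astrocyte markers ran from 3218 to 3416 CPM with tau and from 2806 to 3132 CPM with PBS, without overlap. Without Gfap and Aqp4 the sums of the other 12 overlapped, at 2587 to 2807 CPM with tau and 2438 to 2718 CPM with PBS. With vector the sums of all 14 overlapped, at 3184 to 3443 CPM with tau and 3079 to 3414 CPM with PBS. In bulk RNA, more cells of a type and more RNA per cell cannot be told apart.

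Serpina3n, Clu, Apoe, Cav1 and S1pr3, set together here after their values were seen, rose by smaller amounts. Serpina3n, a secreted protease inhibitor used as a marker of reactive astrocytes, stood at 35.9, 39.9 and 40.5 CPM with tau and at 31.1, 31.3 and 30.3 CPM with PBS (log2 fold change 0.33 ± 0.06, adjusted p = 0.0159). Clu, the secreted chaperone clusterin, stood at 79.7, 85.1 and 90.9 CPM with tau and at 68.5, 66.1 and 73.5 CPM with PBS (0.30 ± 0.06, adjusted p = 0.0278). Apoe, the main lipid carrier of the brain (chromosome 7, 19696109 to 19699188, minus strand), stood at 647, 631 and 695 CPM with tau and at 558, 512 and 533 CPM with PBS (0.30 ± 0.07, adjusted p = 0.0484). No tau library of these 3 genes fell into the PBS range. Apoe lost its call without any 1 of the 6 libraries (adjusted p from 0.109 to 0.273), Clu without 4 of them and Serpina3n without 5. Clu and Apoe were the 2 called of 22 tested genes of the amyloid pathway and Alzheimer risk, of which 11 lay above 0 and 11 below, with a median of -0.01. Cav1, the coat protein of caveolae, and S1pr3, a receptor for sphingosine 1-phosphate, rose by 0.42 ± 0.08 (adjusted p = 0.0347) and 0.32 ± 0.07 (adjusted p = 0.048).

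**Figure D2:**
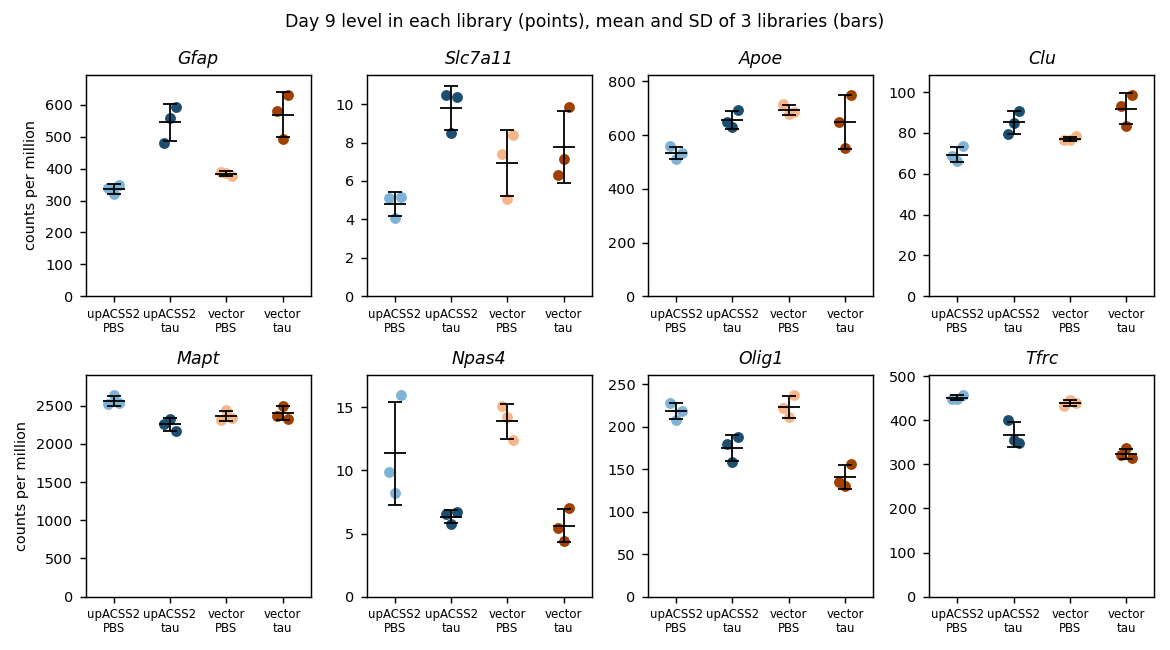
CPM in each day 9 library (points) for 8 genes, with the mean and SD of 3 libraries (bars), grouped by virus and treatment, each axis starting at 0. With upACSS2, Gfap, Slc7a11, Apoe and Clu lie higher in tau and Mapt, Npas4, Olig1 and Tfrc lower, and for Slc7a11, Apoe and Mapt the vector groups overlap.

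The largest change by fold was in Slc7a11, the cystine-glutamate exchanger that supplies cystine for glutathione synthesis (chromosome 3, 49892526 to 50443614, minus strand). It stood at 10.5, 8.49 and 10.4 CPM with tau and at 5.14, 4.10 and 5.16 CPM with PBS. Every tau library was well above every PBS library, and Slc7a11 rose 2.03-fold (log2 fold change 1.02 ± 0.16, adjusted p = 0.00593, edgeR). Without tau replicate 3 the log2 fold change was 0.97 and the adjusted p 0.0636. The gene is a target of ATF4, the transcription factor of the integrated stress response, and of NRF2, the regulator of antioxidant genes. The RefSeq window of 250 bases before its start is shown because it holds the letters TGATGNAA, a form of the composite element that ATF4 binds, once on each strand. Capitals mark these 2 matches, on GRCm38.p6, chr3:50443614-50443863, minus strand:
Slc7a11: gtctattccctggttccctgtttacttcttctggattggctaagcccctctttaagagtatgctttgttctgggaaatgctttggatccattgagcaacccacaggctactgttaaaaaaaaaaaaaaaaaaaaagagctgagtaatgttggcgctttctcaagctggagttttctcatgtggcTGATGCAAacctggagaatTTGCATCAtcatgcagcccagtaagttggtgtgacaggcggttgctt
The matches lie 66 to 59 and 47 to 40 bases before the start. Of 32851 RefSeq windows of this length, 3.45% hold the letters at least once on either strand and 0.0396% hold them 2 or more times. Of the 35 called genes with a window, 2 hold them at least once. A match of letters is a description and shows no binding.

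No other gene of the 2 lists passed. In the list for the unfolded protein and integrated stress response, Slc7a11 was the 1 member called of 27 tested, 23 lay above 0 and 4 below, and the median was 0.06. The members next in p, chosen after their values were seen, were Phgdh, the first enzyme of serine synthesis, at 31.4, 29.5 and 33.0 CPM with tau and 28.4, 23.9 and 24.1 CPM with PBS (adjusted p = 0.075), and Atf5, a stress transcription factor, at 49.3, 47.1 and 49.3 CPM with tau and 41.4, 40.0 and 40.3 CPM with PBS (adjusted p = 0.076). For Phgdh the effect of tau with upACSS2 differed from that with vector by 0.49 ± 0.10 (adjusted p = 0.0436). Of 19 NRF2 genes tested, 12 lay above 0 and 7 below, with a median of 0.02, and again Slc7a11 was the 1 called. Txnrd1, the NRF2-dependent thioredoxin reductase, lay at -0.12 ± 0.05 (adjusted p = 0.47) and Hmox1, heme oxygenase, at 0.22 ± 0.09 (adjusted p = 0.41).

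Iron uptake was represented by a fall. Tfrc, the transferrin receptor (chromosome 16, 32608920 to 32632794, plus strand), stood at 400, 355 and 348 CPM with tau and at 448, 448 and 458 CPM with PBS. The PBS libraries lay within a narrow band above all tau libraries, and Tfrc fell by 0.29 ± 0.04 on the log2 scale (adjusted p = 0.00508, edgeR). Without tau replicate 2 the adjusted p was 0.0509, and without tau replicate 3 it was 0.0636. It was the 1 called of 11 tested genes for metallothioneins and metal transport, of which 3 lay above 0 and 8 below, with a median of -0.02. Mt3, the metallothionein of brain, was at 70.7, 66.3 and 58.3 CPM with tau and 54.7, 49.0 and 54.0 CPM with PBS and missed the threshold (adjusted p = 0.065).

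In the oligodendrocyte lineage a single marker fell. Olig1, a transcription factor of oligodendrocyte progenitors (chromosome 16, 91269772 to 91271933, plus strand), stood at 180, 158 and 188 CPM with tau and at 228, 208 and 219 CPM with PBS, a fall of 0.32 ± 0.06 on the log2 scale (adjusted p = 0.0278). The groups did not overlap, yet the call was lost without any 1 of the 6 libraries (adjusted p from 0.0584 to 0.155). Olig1 shares exon sequence with a noncoding gene on the other strand, Gm15966, and the strand setting of the counts is not given in the sources used here, so reads of the pair cannot be told apart. Olig2, its paralogue of the same lineage, was at 16.4, 13.3 and 16.3 CPM with tau and 20.2, 17.1 and 17.9 CPM with PBS (adjusted p = 0.57). Of 10 tested lineage markers, 5 lay above 0 and 5 below. The summed level of the 13 markers did not overlap, at 215.5 to 248.8 CPM with tau and 264.9 to 289.6 CPM with PBS. Without Olig1 the other 12 summed to 57.6 to 61.8 CPM with tau and 56.7 to 62.1 CPM with PBS, so the groups overlapped without Olig1. With vector all 13 summed to 186.6 to 229 CPM with tau and 284.2 to 330.2 CPM with PBS.

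Egfr, Lfng, Dio2, Tnfrsf19 and Adam12, also set together after their values were seen, fell. Egfr, the receptor for epidermal growth factor, stood at 22.4, 23.8 and 23.5 CPM with tau and at 31.4, 27.7 and 34.3 CPM with PBS (-0.43 ± 0.09, adjusted p = 0.037). Lfng, a glycosyltransferase that modifies Notch receptors, stood at 7.27, 6.44 and 7.97 CPM with tau and at 11.6, 11 and 11.9 CPM with PBS, the second largest fall by fold (-0.66 ± 0.11, adjusted p = 0.0159). Dio2, the deiodinase that activates thyroid hormone in glia, and Tnfrsf19, a receptor of the tumor necrosis factor family, fell by 0.33 ± 0.07 and 0.20 ± 0.04 (adjusted p = 0.030 and 0.037). Adam12, a membrane protease, fell by 0.39 ± 0.07 (adjusted p = 0.0159). None of the 14 tested markers of cycling progenitors passed. Of these 4 lay above 0 and 10 below, with a median of -0.11, and the summed level of the 15 listed was 120.1 to 137.3 CPM with tau and 133.4 to 144.3 CPM with PBS, with overlap.

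**Figure D3:**
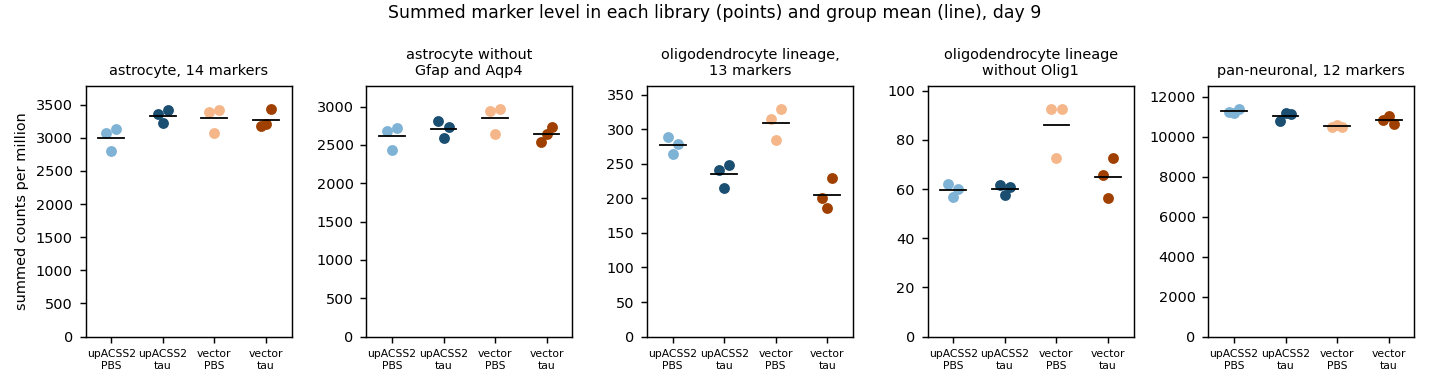
Summed CPM of cell type markers in each day 9 library (points) with the group mean (line), each axis starting at 0. With upACSS2 the astrocyte sum (3218 to 3416 against 2806 to 3132 CPM) and the oligodendrocyte lineage sum (215.5 to 248.8 against 264.9 to 289.6 CPM) separate tau from PBS, and both overlap once Gfap and Aqp4, or Olig1, are taken out, while the pan-neuronal sum (10780 to 11160 against 11180 to 11400 CPM) separates them by a narrow margin.

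The neuronal label was checked by its markers. The 12 pan-neuronal markers summed to 10780 to 11160 CPM with tau and 11180 to 11400 CPM with PBS, slightly lower with tau and without overlap, and none of them passed the threshold (4 above 0, 8 below, median -0.01). The glutamatergic markers summed to 3119 to 3229 CPM with tau and 3018 to 3121 CPM with PBS. The GABAergic markers summed to 1730 to 1788 CPM with tau and 1701 to 1795 CPM with PBS. Both of these sums overlapped. The microglial markers Tmem119, Cx3cr1 and P2ry12 and the endothelial marker Cldn5 stayed at or below 0.225 CPM in all 12 libraries, and 15 microglial or macrophage markers summed to 21.4 to 23.6 CPM with tau and 19.3 to 22.3 CPM with PBS. The part that glial levels had in the other results was not tested.

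Mapt, the gene of endogenous mouse tau (chromosome 11, 104231390 to 104332090, plus strand), fell slightly in the neurons given hAD-tau. It stood at 2263, 2331 and 2172 CPM with tau and at 2519, 2641 and 2536 CPM with PBS. The groups were separate, as were those of the pan-neuronal marker sum, whose part in this result was not tested. The glutamatergic and GABAergic marker sums overlapped. The fall was 0.19 ± 0.04 on the log2 scale, or 12.1% (adjusted p = 0.0278, edgeR). The call was lost without any 1 of the 6 libraries, with the adjusted p between 0.0549 and 0.152 and the log2 fold change between -0.21 and -0.16. Mapt was the 1 called of 25 genes for tau, microtubule proteins and tau kinases, of which 21 lay below 0 and 4 above, with a median of -0.02. Among the others, Tuba1a, an alpha-tubulin, was at 3392, 3732 and 3659 CPM with tau and 3816, 3946 and 3873 CPM with PBS (adjusted p = 0.35), and Cdk5, a tau kinase, at 103, 103 and 99.8 CPM with tau and 96.4, 92.6 and 92.8 CPM with PBS (adjusted p = 0.47).

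Genes of growing neurons were among those that fell. Dpysl2, the tubulin-binding protein CRMP2 of growing axons, stood at 369, 382 and 367 CPM with tau and at 481, 512 and 389 CPM with PBS, with PBS replicate 3 close to the tau libraries (-0.31 ± 0.07, adjusted p = 0.046). Without PBS replicate 3 its log2 fold change was -0.41 and the adjusted p 0.000198, and without any 1 of the other 5 libraries the call was lost (adjusted p from 0.119 to 0.288). Klf7, a transcription factor of axon outgrowth, stood at 44.9, 45.2 and 46.6 CPM with tau and at 57.0, 55.1 and 52.7 CPM with PBS (-0.27 ± 0.06, adjusted p = 0.041). Its exons overlap those of the noncoding genes Gm13748 and Gm26649 on the other strand, so their reads cannot be told apart here. St8sia2, which adds polysialic acid to the adhesion molecule NCAM, fell by 0.27 ± 0.06 (adjusted p = 0.048). None of 23 listed genes for axon guidance and growth passed (8 above 0, 15 below, median -0.03). Sema3e, a guidance cue, had the lowest p of them, at 51.7, 56.4 and 51.3 CPM with tau and 44.1, 41.6 and 46.6 CPM with PBS (adjusted p = 0.053).

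Genes of synapses and neuronal signalling moved both ways. Synpr, the synaptic vesicle protein synaptoporin, stood at 89.0, 94.9 and 96.3 CPM with tau and at 72.8, 74.7 and 80.7 CPM with PBS, a rise of 0.30 ± 0.05 (adjusted p = 0.0159). Rims3, a protein of the presynaptic active zone, stood at 52.9, 46.8 and 46.2 CPM with tau and at 59.9, 62.0 and 63.9 CPM with PBS, a fall of 0.35 ± 0.05 (adjusted p = 0.00593). Ache, acetylcholinesterase, rose from 62.6, 58.9 and 67.4 CPM with PBS to 71.9, 84.7 and 84.9 CPM with tau (0.35 ± 0.07, adjusted p = 0.0208). Cpne6, a calcium-dependent membrane-binding protein of dendritic spines, and Rasal1, which turns off Ras, rose by 0.39 ± 0.08 and 0.39 ± 0.07 (adjusted p = 0.0344 and 0.0208). Kcnk10, a potassium leak channel, fell by 0.22 ± 0.05 (adjusted p = 0.048). No member of the lists for the excitatory synapse (23 tested, 13 above 0), presynaptic release (20 tested, 8 above 0) or ion channels (23 tested, 9 above 0) passed the threshold, with medians of 0.01, -0.01 and -0.02. Slc17a7, the vesicular glutamate transporter, was the member of these lists with the lowest p, at 896, 883 and 908 CPM with tau and 806, 764 and 821 CPM with PBS (adjusted p = 0.092).

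The transcription factors induced by neuronal activity mostly lay lower with tau, but 1 passed. Npas4, which is induced by calcium entry and controls inhibitory synapses (chromosome 19, 4984355 to 4990316, minus strand), stood at 6.58, 5.73 and 6.71 CPM with tau and at 9.88, 8.19 and 16 CPM with PBS. PBS replicate 3 was the highest by far, although all 3 PBS libraries were above the tau libraries. Npas4 fell by 0.84 ± 0.17 on the log2 scale (adjusted p = 0.037, edgeR), and without PBS replicate 3 by 0.52 (adjusted p = 0.147). The call held in 1 of the 6 fits without a library, that without PBS replicate 2, and was lost in the others (adjusted p from 0.0734 to 0.151).

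Of the 16 activity-induced transcription factors, 14 lay below 0 and 2 above, with a median of -0.10 against 0.00 over all genes. Nr4a2 was at 7.10, 5.73 and 6.39 CPM with tau and 8.93, 6.93 and 8.69 CPM with PBS (adjusted p = 0.34), and Fosb at 2.67, 2.86 and 2.32 CPM with tau and 2.75, 3.34 and 5.76 CPM with PBS (adjusted p = 0.37). For Fosb, as for Npas4, the highest value was that of PBS replicate 3. The effectors downstream of activity gave no call among 20 tested, with 13 above 0, 7 below and a median of 0.04.

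In each of the lists for sterol and fatty acid synthesis 1 gene rose. Tm7sf2, a sterol reductase of cholesterol synthesis, stood at 117, 123 and 121 CPM with tau and at 105, 102 and 97.3 CPM with PBS (0.25 ± 0.05, adjusted p = 0.0208). Its exons overlap those of Vps51 on the same strand, so reads of the overlap could have gone to either gene or been dropped. Tm7sf2 was the 1 called of 25 tested genes of sterol synthesis and uptake, of which 21 lay above 0 and 4 below, with a median of 0.06. Thrsp, a regulator of fatty acid synthesis, stood at 64.9, 62.7 and 63.5 CPM with tau and at 53, 52.7 and 51.2 CPM with PBS (0.29 ± 0.06, adjusted p = 0.048), the 1 called of 16 tested genes of fatty acid synthesis (8 above 0, 8 below, median 0.02). Tm7sf2 kept its call in 1 of the 6 fits without a library and Thrsp in none.

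Among the remaining genes that rose, several serve metabolism or protein handling. Ppcs, an enzyme of coenzyme A synthesis, stood at 4.82, 4.70 and 3.90 CPM with tau and at 2.71, 2.65 and 3.18 CPM with PBS, the lowest level among the 49 (0.64 ± 0.14, adjusted p = 0.048). Cib2, a calcium-binding protein, stood at 8.21, 9.36 and 8.82 CPM with tau and at 6.14, 5.80 and 5.91 CPM with PBS (0.56 ± 0.11, adjusted p = 0.0278). Rida, a deaminase that removes reactive enamines, stood at 21.0, 18.5 and 19.6 CPM with tau and at 13.9, 13.4 and 15.4 CPM with PBS (0.47 ± 0.08, adjusted p = 0.0197). Emc9, a subunit of the complex that inserts membrane proteins, rose by 0.52 ± 0.11 (adjusted p = 0.0377), Gda, the guanine deaminase, by 0.36 ± 0.07 (adjusted p = 0.037) and Tceal1 by 0.39 ± 0.07 (adjusted p = 0.0218). Cib2 and Emc9 share exon sequence with protein-coding genes on the other strand. Acss2, Ache, S1pr3, Dio2, Epb41, Aff2, Col9a3, Slc44a5, Epc1 and Pvt1 also share exon sequence with genes of various kinds on the other strand. Among those that fell, Epb41, which links the membrane to spectrin and actin, changed by -0.36 ± 0.07 (adjusted p = 0.0278), Aff2, of a family of elongation factor scaffolds, by -0.37 ± 0.08 (adjusted p = 0.048), Gtf2f1, a general transcription factor subunit, by -0.29 ± 0.06 (adjusted p = 0.048) and B4galt5, a galactosyltransferase of glycolipid synthesis, by -0.23 ± 0.05 (adjusted p = 0.0484).

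Several lists leaned to 1 side without any call. Of 29 genes of glycolysis and the hypoxia response, 24 lay above 0, with a median of 0.07. Of 30 nuclear-encoded respiratory chain genes, 24 lay above 0, with a median of 0.03. All 7 tested antigen presentation genes lay above 0, with a median of 0.18. Of these, B2m, the light chain of MHC class I, had the lowest p, at 15.7, 20.1 and 19.8 CPM with tau and 16.3, 16.6 and 14.6 CPM with PBS (adjusted p = 0.38). Of 31 genes for histone acetyltransferases, deacetylases and acetyl-lysine readers, 21 lay below 0, with a median of -0.02. Lists for lysosome and autophagy (27 tested, median 0.01), cytosolic heat shock (17 tested, median 0.03), interferon response (8 tested, median 0.03), NF-kB and inflammation (10 tested, median 0.01) and heparan sulfate and tau uptake (18 tested, 8 above 0) also gave no call. Over all 14022 genes, 7085 lay above 0.

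**Figure D4:**
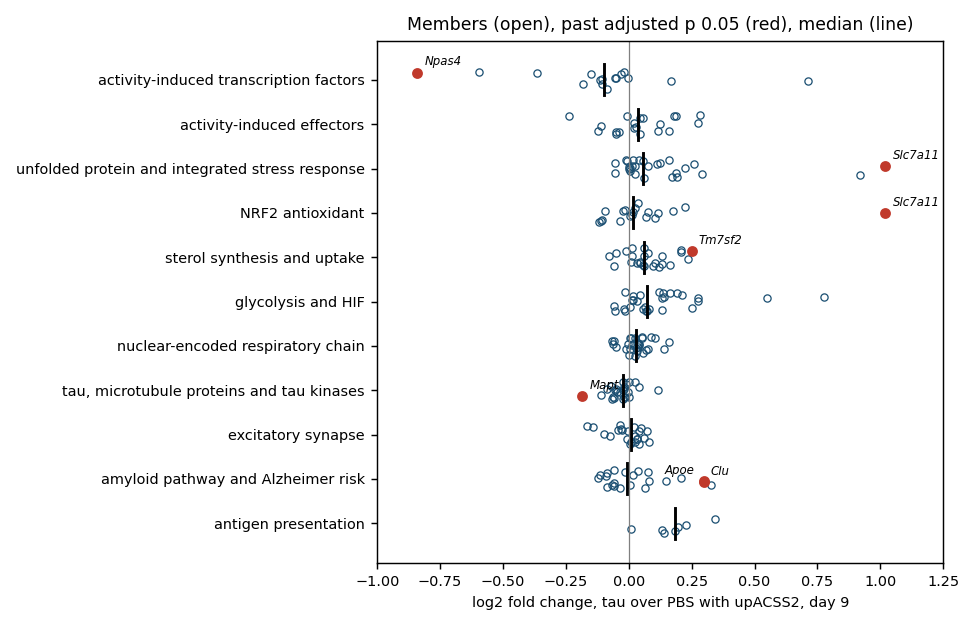
Log2 fold change of tau over PBS with upACSS2 (horizontal axis) for each tested member of 11 gene lists, with members past the threshold in red and the median of each list as a line. The medians run from -0.10 for the activity-induced transcription factors to 0.18 for antigen presentation, and no list has more than 2 members in red.

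The second question was whether tau acted differently with upACSS2 than with vector. With vector, 600 of the same 14022 genes passed the threshold for tau against PBS (4.28%), 282 higher (2.01%) and 318 lower (2.27%). Of the 49 genes called with upACSS2, 33 had the same sign with vector, 13 were also called there in the same direction, and 2, Klf7 and Dpysl2, were called in the opposite direction. The 15 shared calls were 30.6% of the upACSS2 list and 2.50% of the vector list. Over all genes, 46.5% had the same sign with both viruses, and of the 600 genes called with vector 49.2% had the same sign with upACSS2. The 2 contrasts share no library. Vector calls ran from 60 to 1409 when 1 of its 6 libraries was left out, the highest without tau replicate 3. Where counts of calls with the 2 viruses stand side by side below, they are description only.

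The difference of the tau effects was tested directly, as the interaction of tau and virus. It passed for 93 genes (0.663% of those tested), 39 with the effect higher with upACSS2 (0.278%) and 54 with it lower (0.385%). In 91 of the 93 the tau effect had opposite signs with the 2 viruses, 62 were called with vector, and 26 were called with neither virus. Over all genes tested, 46.5% had the same sign with both viruses and 4.28% were called with vector. The test picks genes whose 2 effects lie far apart, so the choice itself favours opposite signs and large vector effects. Klf7 and Dpysl2 had the lowest p. Klf7 with vector rose from 41.7, 41.8 and 41.8 CPM in PBS to 49.3, 58.6 and 51.2 CPM in tau, and its difference was -0.61 ± 0.08 (adjusted p = 0.000948, edgeR). Dpysl2 with vector rose from 367, 351 and 341 CPM in PBS to 478, 485 and 429 CPM in tau, and its difference was -0.70 ± 0.09 (adjusted p = 0.000948). Leaving out any 1 of the 12 libraries kept both calls. The count itself moved between 3 and 918 in those fits, with 918 without vector tau replicate 3.

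The 49 genes were looked up in this test. It contains the upACSS2 effect by which they were chosen, so their choice already favours passing. Of the 49, 7 passed, against 0.663% of all genes tested. Besides Klf7 and Dpysl2, they were St8sia2 (-0.42 ± 0.09), Aff2 (-0.52 ± 0.12), Tceal1 (0.46 ± 0.10), Tagln3 (0.32 ± 0.07) and Thrsp (0.39 ± 0.09). Each of these 5 had an adjusted p between 0.0436 and 0.0471 (edgeR). For Mapt, Slc7a11, Apoe and Olig1 the difference came close without passing. Mapt with vector stood at 2371, 2503 and 2327 CPM in tau and 2311, 2441 and 2342 CPM in PBS, and its difference was -0.21 ± 0.05 (adjusted p = 0.0546). Slc7a11 with vector stood at 6.30, 7.13 and 9.86 CPM in tau and 7.41, 5.04 and 8.39 CPM in PBS, and its difference was 0.89 ± 0.23 (adjusted p = 0.0583). Apoe with vector stood at 647, 552 and 751 CPM in tau and 717, 680 and 685 CPM in PBS, and its difference was 0.40 ± 0.09 (adjusted p = 0.0512). For Olig1, which fell further with vector (135, 130 and 156 against 222, 212 and 237 CPM), the difference was 0.36 ± 0.09 (adjusted p = 0.0552). Without vector tau replicate 3 all 4 passed, with adjusted p of 0.0112, 0.00529, 0.000664 and 0.00347. Slc7a11 also passed without vector PBS replicate 2 (0.0319) and Olig1 without upACSS2 tau replicate 2 (0.0473). With no library left out, all 4 passed with the replicate number as a block (Mapt 0.029, Slc7a11 0.0293, Apoe 0.029, Olig1 0.0221) and without the filter on low counts, and Mapt and Olig1 passed in DESeq2 (0.0126 and 0.0128). So the side of the threshold for these 4 genes depended on the settings as well as on single libraries.

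For other leading genes the tau effect had the same sign with both viruses and the difference did not pass. Gfap with vector stood at 581, 493 and 632 CPM in tau and 390, 387 and 377 CPM in PBS, and the difference of the effects was 0.13 ± 0.10 (adjusted p = 0.52). Tfrc with vector fell by 0.44 ± 0.04, with a difference of 0.14 ± 0.06 (adjusted p = 0.24). Npas4 with vector fell by 1.34 ± 0.18, with a difference of 0.50 ± 0.26 (adjusted p = 0.32, or 0.0457 without upACSS2 PBS replicate 3). These p-values do not show that the effects were equal. Among the activity-induced transcription factors 8 of 16 were called lower with vector, with a median of -0.41, beside the 1 call and the median of -0.10 with upACSS2. Of 14 cycling progenitor markers, 7 were called lower with vector and none with upACSS2. Over all genes tested, 4.28% were called with vector and 0.349% with upACSS2. In the direct test of the difference, none of these 16 transcription factors and none of these 14 markers passed. The number of calls with vector depended on single libraries, and how the lists differed between the viruses was not tested as such.

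Most of the genes named here for large differences were called with vector. Kcnj16, a potassium channel of glia, stood at 5.42, 4.40 and 4.04 CPM in tau and 4.66, 3.40 and 4.17 CPM in PBS with upACSS2. With vector it stood at 2.81, 2.64 and 2.05 CPM in tau and 6.80, 4.52 and 5.90 CPM in PBS, so only the vector groups were separate, and the difference was 1.37 ± 0.24 (adjusted p = 0.0197). Fabp7, the fatty acid binding protein of radial glia and astrocytes, stood at 486, 345 and 382 CPM in tau and 387, 307 and 334 CPM in PBS with upACSS2, with overlap. With vector it stood at 354, 329 and 461 CPM in tau and 566, 496 and 559 CPM in PBS, and the difference was 0.74 ± 0.15 (adjusted p = 0.0436). Slc44a5, Arrdc3 and Fam71e1 were called higher in tau with vector (0.59 ± 0.11, 0.56 ± 0.13 and 0.53 ± 0.14) and lay at -0.08 ± 0.11, -0.22 ± 0.13 and -0.26 ± 0.11 with upACSS2.

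The order of the 4 group means was described for the 49 genes, without a test, because their choice already fixed the order of the upACSS2 groups. In 26 of the 30 genes that rose, upACSS2 with PBS had the lowest mean of the 4 groups, against 25.9% of all genes tested and 70.5% of all genes in which every upACSS2 tau library was above every upACSS2 PBS library. In 16 of the 30, all 3 upACSS2 PBS libraries were below all 6 vector libraries (4.15% of all genes, and 18.8% of those with every upACSS2 tau library above every PBS library), among them Arhgef25, Rida, Cib2, Tceal1, Pvt1 and Hspa2. Arhgef25, a guanine nucleotide exchange factor, stood at 65.5, 60.3 and 61.0 CPM in tau and 51.8, 48.2 and 50.3 CPM in PBS with upACSS2, and at 64.9, 60.0, 69.2, 65.4, 62.0 and 62.9 CPM in the vector libraries. In 6 of the 30 (Ppcs, Cpne6, Serpina3n, Tm7sf2, Gda and Stum) all 3 upACSS2 tau libraries were above all 6 vector libraries, against 3.32% of all genes and 12% of those with every upACSS2 tau library above every PBS library. Among the 19 genes that fell, upACSS2 with PBS had the highest mean in 13, or 68.4%. That share was 24.3% of all genes and 67.5% of those with every upACSS2 tau library below every PBS library, so it was close to the share in genes chosen by separation alone. In Mapt, Tfrc, St8sia2 and Adam12 all its libraries were above all 6 vector libraries (4 of 19, or 21.1%, against 4.15% of all genes and 17.2% of those with tau below PBS throughout). In Epc1, B4galt5, Kcnk10 and Gtf2f1 all 3 upACSS2 tau libraries were below all 6 vector libraries (21.1%, against 2.69% and 8.41%).

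The same comparison on day 21, in other libraries of the same virus and treatments, gave no call among 14639 genes (0% called, edgeR), with 931 at an unadjusted p under 0.05 and 11 calls by DESeq2. The spread between libraries was wider there, with a biological coefficient of variation of 0.189 against 0.042 on day 9. Of the 49 genes, 42 had the same sign on day 21, against 55.2% of all genes, and 8 had an unadjusted p under 0.05. The day 21 log2 fold change was 0.90 ± 0.58 for Gfap, 0.93 ± 0.51 for Aqp4, 0.51 ± 0.33 for Apoe, -0.59 ± 0.24 for Olig1 and -0.53 ± 0.16 for Tfrc. It was 0.07 ± 0.52 for Slc7a11, -0.04 ± 0.11 for Mapt and 0.29 ± 0.64 for Npas4. The difference between the days was not tested.

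**Figure D5:**
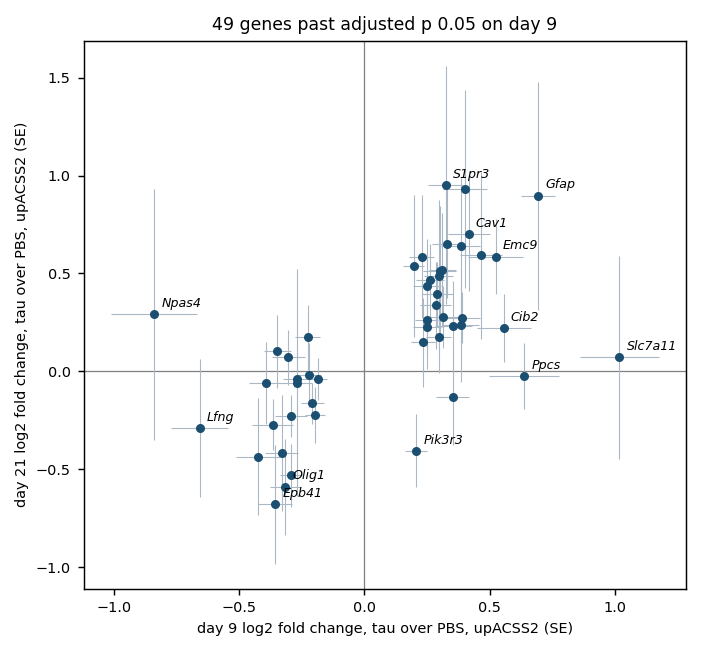
Log2 fold change of tau over PBS with upACSS2 on day 9 (horizontal axis) and on day 21 (vertical axis) for the 49 genes called on day 9, with standard errors as bars. Of the 49 points, 42 lie in the quadrants where both days have the same sign, and the day 21 error bars are the longer ones.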

How the data were processed

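Per the labels' protocols, 130 ng of total RNA, from Trizol and column purification, went into each NEB library. The authors deposited raw read counts per gene symbol, and their processing notes name STAR, featureCounts, HTSeq, DESeq2 and mm10, with no roles. Strand setting and annotation are not given in the sources used here.

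All 12 day 9 libraries entered 1 edgeR fit (4.0.16, R 4.3.3) with a coefficient per group, TMM scaling, filterByExpr by group, the quasi-likelihood F test and Benjamini-Hochberg adjustment over 14022 of 25239 genes, two-sided. SE is the log2 fold change over the square root of F. In counts simulated for the tau contrast with upACSS2 (13943 genes), 71.4%, 64.0%, 90.0% and 98.0% of genes changed 1.25, 1.5, 2 and 3-fold were recovered, and 5.29% of calls were false. This was 1 draw of independent libraries from the fitted spread, with no library that stood apart. It checks the fit and does not give the share of false calls in the real libraries.

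Comparison, lists and rules were chosen with earlier results of these data known. Genes named were Acss2, the 15 highest and 15 lowest calls with a log2 CPM averaging 1 or more and no overlap of the groups, called list members, the 5 highest and 5 lowest differences between viruses, and, in lists without a call, members with the lowest p. Other called genes, and uncalled members of lists that had a call, were named after their values were seen. The result for 1 gene chosen by the rule is not reported here.

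Positions are from GENCODE M21 (GRCm38, the same build as mm10), where all 58 symbols matched, and promoters from RefSeq. Alternatives were RLE factors, no filter, DESeq2 1.42.0, the 24 libraries of both days, the 6 libraries compared, the replicate number as a block, and each library left out. Leaving out vector libraries, and the alternatives for 7 differences between viruses, were added after seeing the data.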

Additional observations from a re-analysis of the deposited data

Results flagged for a closer look

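Effects of tau that differed between the viruses by a direct test were picked out. The interaction of tau and virus passed for 93 genes in edgeR's quasi-likelihood test. The values below are the tau effect with upACSS2 minus that with vector, on the log2 scale, for genes named by rule and reported here. The difference was 1.37 for Kcnj16, 0.80 for Col9a3, 0.74 for Fabp7, 0.675 for Cip2a, 0.46 for Tceal1 and 0.39 for Thrsp. It was -0.79 for Fam71e1, -0.78 for Arrdc3, -0.70 for Dpysl2, -0.67 for Slc44a5, -0.615 for Klf7, -0.52 for Aff2 and -0.42 for St8sia2. Col9a3, a cartilage collagen, was called with neither virus alone. Phgdh and Tagln3, named after their values were seen, also passed this test, with their values given above.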

How the results depend on the processing

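No gene result that was rerun under the alternatives changed sign. For other named results, among them those of Synpr, Phgdh and Arhgef25, the sign was not checked. The cause was not tested for any of these changes. The 49 calls for tau with upACSS2 became 49 with RLE factors, 201 without the filter, 80 with DESeq2 (42 shared), 0 in the fit of 24 libraries (181 unadjusted), 125 with the 6 libraries alone (49 shared), and 1 to 23 without 1 upACSS2 library. Without a vector library, chosen after seeing the data, they were 36, 84 and 81 (tau replicates 1 to 3) and 32, 38 and 33 (PBS replicates 1 to 3). The 93 differences between viruses became 94 with RLE factors, 794 without the filter, 327 with DESeq2, 0 with 24 libraries and 3 to 918 without 1 library. The 600 vector calls became 598 with RLE factors, 1153 without the filter, 1 with 24 libraries, 257 with 6 and 60 to 1409 without 1 library. The 0 calls of day 21 became 11 with DESeq2, 8 with 24 libraries and 0 to 1 without 1 library. The log2 fold change of Acss2 by virus was 5.24 to 5.34 without 1 library. With the replicate number as a block the tau calls with upACSS2 were 42 (36 shared, 69.0% higher against 61.2%), those for the difference 142 and those with vector 552. Same-numbered tau and PBS libraries deviated from their group means with correlations of 0.039, 0.10 and -0.022 with upACSS2 and -0.044, -0.0048 and -0.040 with vector, so the numbers were not taken to pair tau with PBS. Across viruses, PBS replicate 2 of upACSS2 and of vector correlated at 0.136 and stood apart on the third principal component (10.6 and 11.5, the other libraries at most 2.06). The same-numbered PBS replicates 1 and 3 correlated at 0.00033 and 0.0056. With unlike numbers, upACSS2 PBS replicate 3 and vector PBS replicate 1 correlated at 0.132. A source shared by number was not tested.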
